A study of Gallus gallus with 5 samples.

Results

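Metalloproteinases are enzymes with a zinc ion in the active site that cut the extracellular matrix and the outer parts of membrane proteins. ADAM proteins sit in the cell membrane and release (shed) the outer parts of receptors and growth factors, whereas ADAMTS proteins are secreted and cut proteoglycans and procollagens. MMP proteins cut collagens, gelatin and many other substrates, and TIMP proteins inhibit all 3 kinds to differing degrees. In the ovary these genes are known for the remodelling of the follicle wall as follicles grow and ovulate, and in the mouse ADAMTS1 is needed for normal ovulation.

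The genes described here are those with a symbol that starts with ADAM and a digit, ADAMTS, MMP and a digit, or TIMP and a digit. The rule found 48 of the 24356 listed genes: 12 ADAM, 17 ADAMTS, 3 ADAMTSL, 13 MMP and 3 TIMP genes. ADAMTSL proteins resemble ADAMTS proteins but have no protease domain. The symbol ADAM20 stands at 2 identifiers, and reads of such similar copies may have been split between them.

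RNA of granulosa cells, which form the inner layer of the follicle wall, was sequenced from broiler breeder hens. All hens were raised on restricted feed, and from 28 weeks of age they were either fed ad libitum (FF) or kept on restricted feed (RF) for 6 weeks. Libraries of 2 FF and 3 RF hens were analysed, each made from granulosa cells pooled from several 6–8-mm follicles of 1 hen. FF hens were picked for many preovulatory follicles and RF hens for a normal number, and each diet had its own pen, so that diet, pen and follicle number cannot be told apart. The authors discarded another FF library as an outlier in clustering, and it was not analysed here.

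The normalized counts of all genes summed to 25929234 to 29491091 per library, and 1 read was worth an estimated 0.813 to 1.21 normalized counts. All 10 granulosa markers were present, among them GATA4 at 29524 to 38730 normalized counts. Some libraries stood apart. RF replicate 1 had the highest value in 11 of 14 theca and stroma markers, in LUM tied with the other RF libraries. CYP17A1, a theca enzyme, was there at 1794 normalized counts against 73 to 207 in the other libraries. The summed level of these markers was 9245 and 9690 in FF hens and 6635 to 10083 in RF hens, a sum carried by ACTA2, COL1A2 and MYH11. Of the 12 tested, 9 had a negative log2 fold change, FF minus RF (median −1.54), and 0 passed the test with limma. PDGFRA, TAGLN, DES and TCF21 reached the mean of 10 needed for testing through RF hens only, so that the filter fixed their direction. At an unadjusted p under 0.05 from limma, 2 were lower, PDGFRA and TAGLN, and 1 higher. Of all tested genes, 8.22% were lower and 9.58% higher at that threshold. The higher one was ACTA2, with 3429 and 4257 normalized counts in FF hens against 1533, 1766 and 3402. PDGFRA had 0 and 0 normalized counts against 56, 14 and 7, and TAGLN 3 and 0 against 38, 10 and 8. DES had 12 and 5 against 156, 21 and 20. LUM was listed at 0 in both FF libraries and at 1 in each RF library, and was not tested. PDGFRB, at 98 and 191 against 163 to 204, and COL3A1, at 1095 and 244 against 458 to 1223, overlapped between groups. RF replicate 2 stood apart in genes described further on. Other markers also moved with the diet groups. The granulosa markers summed to 152932 and 216940 in FF hens and 102401 to 115730 in RF hens, but they did not move as 1 group. INHA, an inhibin subunit, had 36972 and 73862 against 2980 to 3440, and with CYP11A1, WNT4 and NR5A1 it passed the test as higher. Of the 10 markers, 8 were higher and 2 lower in FF hens. WT1 had 1717 and 1311 against 2549 to 7223, and AMH had 21048 and 17336 against 23945 to 38052. The 3 measured markers of red blood cells summed to 3628 and 3914 against 1282 to 1610. Most of this sum was ALAS2, an enzyme of haem synthesis, with 3369 and 3318 against 1230 to 1528. The globin genes HBA1 and HBBA had 145 and 327 against 27 to 60, and 114 and 269 against 25 to 47. The oocyte markers, on 6 identifiers because ZAR1 stands at 2, summed to 846 and 1092 against 1167 to 1937. The sum of the 7 endothelial markers, carried by EGFL7 and PECAM1, was 4524 and 5197 against 3726 to 4871. Of the 7, 5 had negative and 2 positive log2 fold changes, and 2 did not overlap between groups (28.6%, against 36.3% of all tested genes). These were KDR, with 5 and 8 in FF hens against 198, 21 and 32, and ERG, with 8 and 24 against 104, 57 and 269. KDR reached the mean needed for testing through RF hens only, so that the filter fixed its direction. The part of these differences in the results on metalloproteinases was not tested. In such bulk samples, fewer cells of a type and less RNA per cell cannot be told apart.

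Of the 48 genes, 36 had a mean of at least 10 normalized counts and were tested, 11 lay below this level, and MMP7 was listed at 0 in all 5 libraries. The mean was 1000 or more in 12 genes, 100 to under 1000 in 10 and 10 to under 100 in 14. Values are compared between hens for the same gene, because normalized counts also depend on transcript length.

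**Figure D1:**
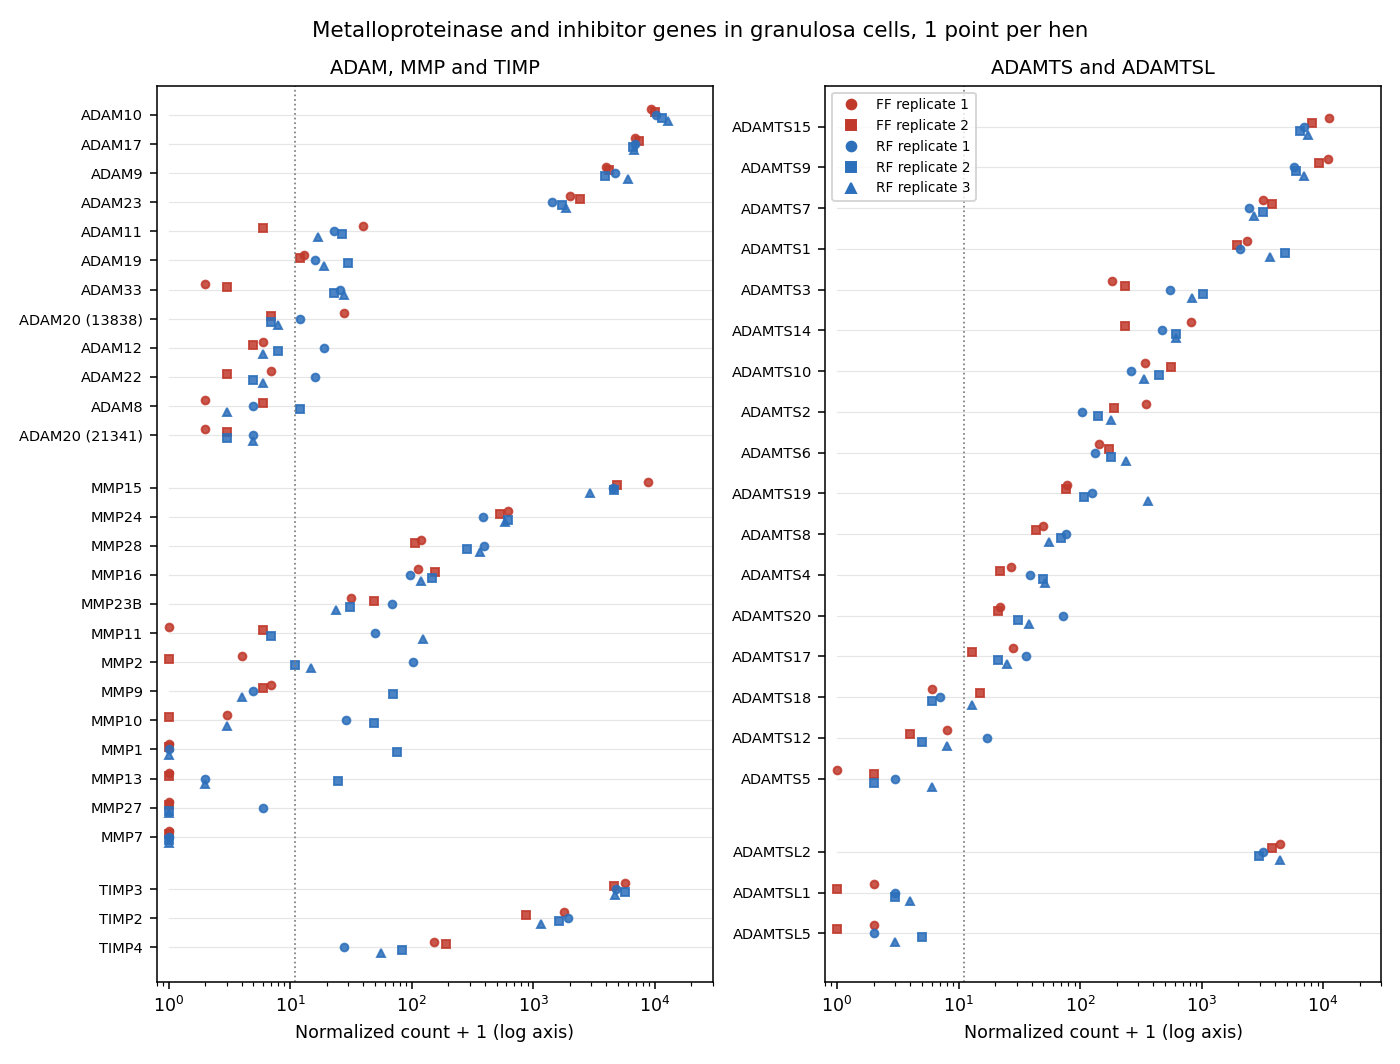
Normalized count plus 1 (log axis) of all 48 genes in each library, with FF hens in red and RF hens in blue and 1 symbol per replicate; the dotted line marks the mean of 10 needed for testing. ADAMTS3, MMP28 and ADAM33 show the FF points apart from and below the RF points, and MMP1, MMP9 and MMP13 show RF replicate 2 alone to the right.

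ADAMTS3 and MMP28 were lower in FF hens than in RF hens. ADAM33 was also lower, but it passed the minimum mean only through its RF values, so that its direction was fixed by the filter. No gene of the group passed the test as higher. Log2 values of the normalized count plus 1 were compared with limma, FF minus RF, and p-values were adjusted over all 13305 tested genes by the Benjamini-Hochberg method. Of the 36 tested members, 3 were lower and 0 higher at an adjusted p under 0.05, where 0.241% of all tested genes were lower and 0.842% higher (1.08% in either direction). Among all tested genes these shares stand for 32 lower and 112 higher genes, or 70 and 90 after scaling every library to the same total. At an unadjusted p under 0.05, 7 members were lower and 6 higher, which is 36.1% of the 36, against 17.8% of all tested genes (8.22% lower and 9.58% higher). The FF and RF libraries did not overlap in 18 of the 36 members (11 lower and 7 higher), against 36.3% of all tested genes (16.9% lower and 19.3% higher). Genes that passed the minimum mean only through the group in which they were high had to differ, so these shares are descriptions.

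ADAMTS3 (ENSGALG00000011623) encodes a protease that removes the N-terminal propeptide of procollagens and also takes part in the activation of VEGFC, a growth factor of lymphatic vessels. It had 183 and 234 normalized counts in FF hens and 548, 1024 and 836 in RF hens. Every RF library lay above both FF libraries, and the lowest RF value was that of replicate 1. The group means were 208 ± 36.1 (SD, n = 2) in FF hens and 803 ± 240 (SD, n = 3) in RF hens, and limma gave a log2 fold change of −1.90 with a standard error of 0.29 and an adjusted p of 0.0436.

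MMP28 (ENSGALG00000002081), or epilysin, is a secreted MMP known from skin and other epithelia. It had 118 and 106 normalized counts in FF hens and 394, 285 and 366 in RF hens. The values within each group lay close together and the groups did not overlap. Limma put the log2 fold change at −1.62, with a standard error of 0.23 and an adjusted p of 0.036. ADAMTS3 and MMP28 were also beyond the study's thresholds as applied here to the limma results. These also ask for a log2 fold change beyond 1 and for 1 group to average 200 or more. The study, which used DESeq2, states a minimum read count of 200, and the group average is the reading taken here. It already lists both genes as higher in RF hens of the same data, so these calls are not independent of it. Of all tested genes, 0.849% passed the thresholds as applied here (0.15% lower, 0.699% higher).

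ADAM33 (ENSGALG00000030602), an ADAM protease described in human connective tissue cells, was near the floor in FF hens. It had 1 and 2 normalized counts in FF hens and 25, 22 and 27 in RF hens. The RF values lay close together. The stroma markers PDGFRA and TAGLN were also near the floor in FF hens, at 0 and 0 and at 3 and 0. In RF replicates 1, 2 and 3 they had 56, 14 and 7, and 38, 10 and 8, with both peaks in RF replicate 1. Of the 12 tested theca and stroma markers, 9 were lower and 3 higher in FF hens. Among the lower ones, PDGFRA, TAGLN, DES and TCF21 passed the minimum mean only through RF hens, so that the filter fixed their direction. The part of such markers in the ADAM33 difference was not tested. Limma put the log2 fold change at −3.38, with a standard error of 0.52 and an adjusted p of 0.0443, a value that depends on the 1 added to each count, and it was −1.78 (adjusted p = 0.0566) when 8 was added.

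These 3 calls are fragile, since 0 members passed without RF replicate 1, 2 or 3. Among all tested genes, 3, 7 and 31 were then lower and 20, 26 and 97 higher, in place of 32 and 112. The adjusted p values from limma then ran from 0.0548 to 0.105 for ADAMTS3 and from 0.0718 to 0.118 for MMP28. For ADAM33 they ran from 0.0976 to 0.127. Leaving out an FF library leaves 1 FF hen, so for these 3 genes only the log2 fold change is given there. Without any single library, FF or RF, the log2 fold changes stayed between −2.16 and −1.70, −1.75 and −1.52, and −3.68 and −3.09. Without RF replicate 1 the log2 fold changes were −2.16, −1.52 and −3.37.

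**Figure D2:**
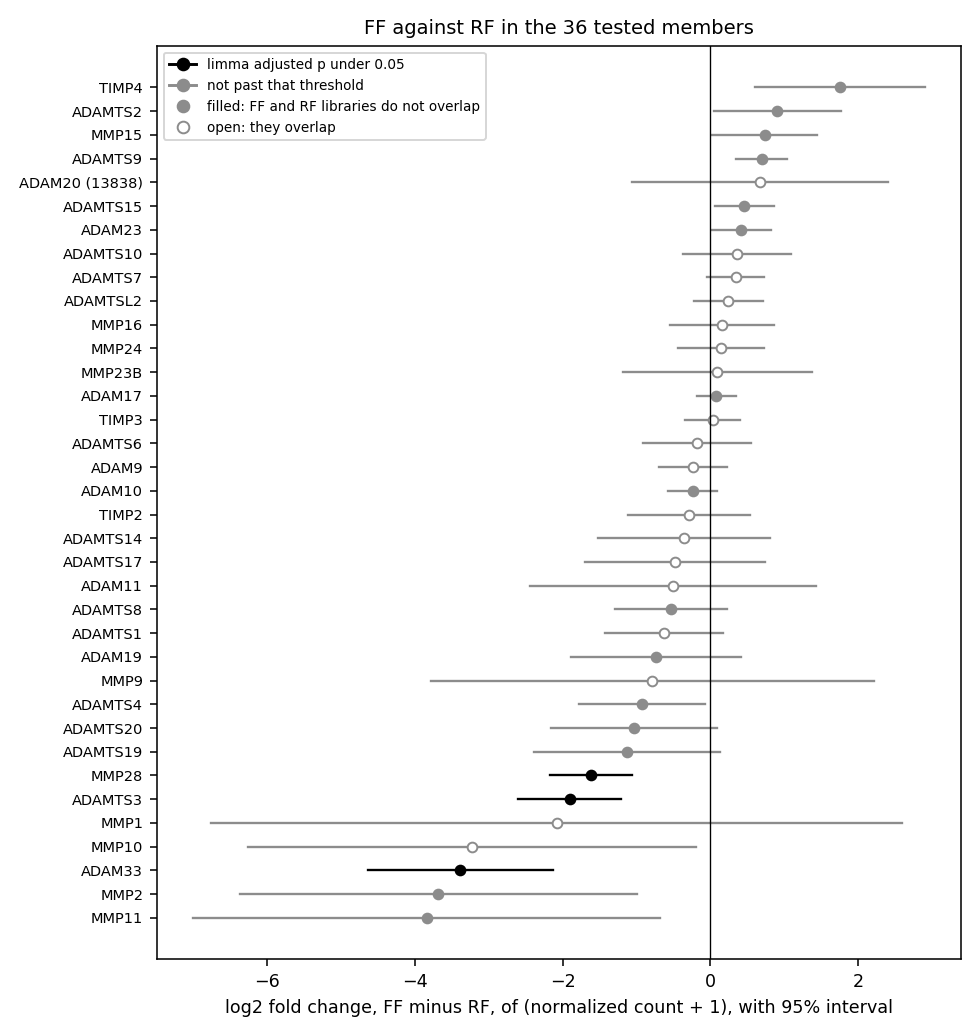
Log2 fold change (FF minus RF) of normalized count plus 1 with its 95% interval from limma for the 36 tested genes, in black where the adjusted p was under 0.05 and filled where FF and RF libraries did not overlap. The 3 black genes lie at −1.62, −1.90 and −3.38, and the intervals of low genes such as MMP1 and MMP11 are wide.

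The 3 procollagen N-propeptidases, ADAMTS2, ADAMTS3 and ADAMTS14, differed in direction. ADAMTS2 had 346 and 189 normalized counts in FF hens and 102, 139 and 177 in RF hens. Its FF values were thus the highest, and the log2 fold change of 0.91 (standard error 0.36) did not pass the test (adjusted p = 0.256 from limma). Its log2 fold change was 0.47 without FF replicate 1. ADAMTS14 had 820 and 234 in FF hens and 469, 609 and 613 in RF hens, so that the FF libraries were the highest and the lowest of all (log2 fold change −0.35, limma's adjusted p = 0.75). Within each library, the normalized count of ADAMTS2 divided by that of ADAMTS3 was 1.89 and 0.808 in FF hens and 0.186, 0.136 and 0.212 in RF hens. This ratio does not depend on how the libraries were scaled, and it was chosen after the values had been seen and has no test.

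The proteoglycanases cut versican, aggrecan and related proteoglycans, and 6 of 7 were tested. ADAMTS9 had 11056 and 9166 normalized counts in FF hens and 5813, 5937 and 7011 in RF hens. The groups did not overlap, and the log2 fold change of 0.69 (standard error 0.15) missed the threshold at an adjusted p of 0.0837 from limma. ADAMTS15, which neighbours ADAMTS8 in the RefSeq annotation of GRCg7b, had 11233 and 8104 in FF hens and 6464 to 7490 in RF hens (log2 fold change 0.46, limma's adjusted p = 0.225), and its log2 fold change was 0.22 without FF replicate 1 and 0.69 without FF replicate 2. ADAMTS1 had 2358 and 1957 in FF hens and 2078, 4831 and 3658 in RF hens, where RF replicate 1 lay between the FF libraries (log2 fold change −0.63, limma's adjusted p = 0.381). The normalized count of ADAMTS9 divided by that of ADAMTS1 was 4.69 and 4.68 in FF hens and 2.80, 1.23 and 1.92 in RF hens, again a pair chosen after the values had been seen.

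ADAMTS4, ADAMTS8 and ADAMTS20 were low, and their FF values lay below all RF values. ADAMTS4 had 26 and 21 normalized counts in FF hens and 38, 49 and 50 in RF hens, with a log2 fold change of −0.93 (adjusted p = 0.247 from limma). ADAMTS8 and ADAMTS20 had log2 fold changes of −0.53 and −1.04 (adjusted p = 0.43 and 0.315 from limma). ADAMTS5, the neighbour of ADAMTS1 in the annotation and a major aggrecanase in mouse cartilage, had 0 to 5 normalized counts in the 5 libraries.

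**Figure D3:**
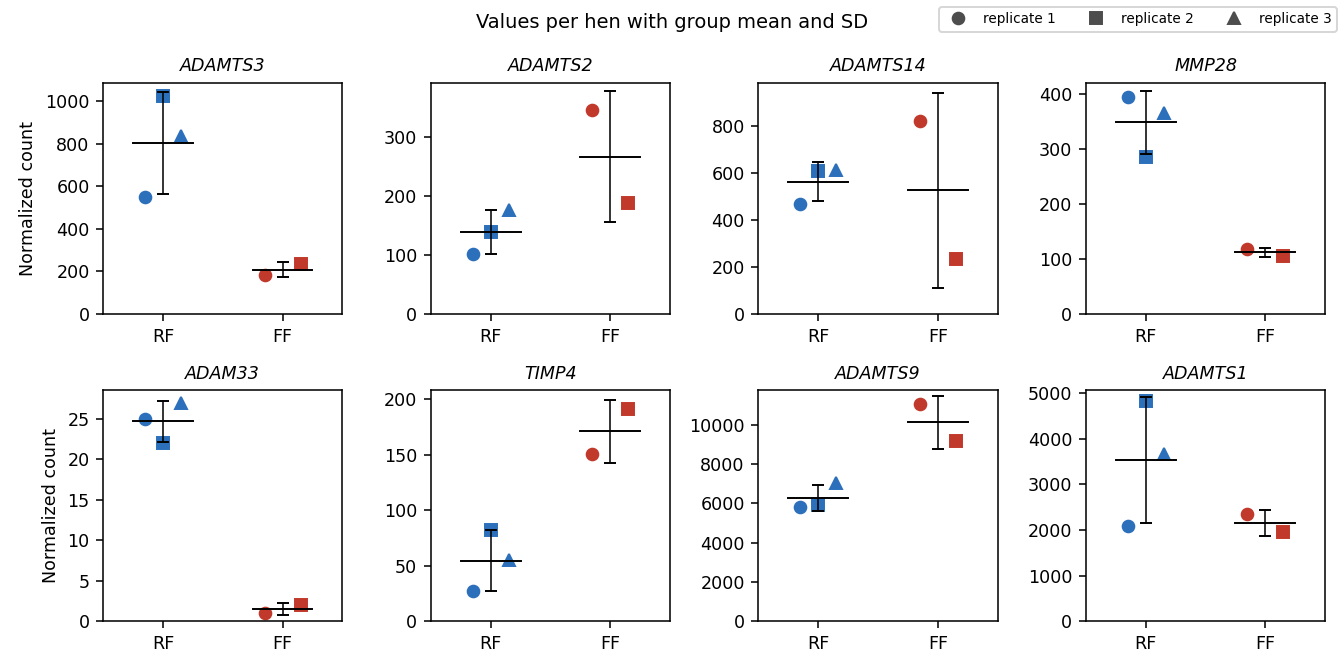
Normalized counts of 8 members per hen, RF in blue and FF in red, with the group mean and SD as black lines (n = 3 RF and 2 FF). ADAMTS3, MMP28 and ADAM33 are lower in both FF hens, ADAMTS2, TIMP4 and ADAMTS9 show higher FF values without passing the test, and ADAMTS14 and ADAMTS1 overlap.

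Of the other ADAMTS genes, ADAMTS7, which cuts cartilage oligomeric matrix protein, had 3213 and 3821 normalized counts in FF hens and 2444 to 3227 in RF hens (log2 fold change 0.34, limma's adjusted p = 0.334). ADAMTS19 had 77 and 76 in FF hens and 124, 106 and 360 in RF hens, with RF replicate 3 far above the other RF hens and a log2 difference of −1.12 (adjusted p = 0.329 from limma). ADAMTS6, ADAMTS10 and ADAMTS17 overlapped between groups. ADAMTS12 and ADAMTS18 were below the minimum mean, at 3 to 16 and 5 to 14 normalized counts. ADAMTSL2, which binds fibrillin in the matrix, had 3818 and 4458 in FF hens and 2975 to 4427 in RF hens, whereas ADAMTSL1 and ADAMTSL5 stayed between 0 and 4.

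Among the ADAM sheddases, ADAM10, ADAM17 and ADAM9 did not pass the test. The FF and RF libraries did not overlap in ADAM10, which was lower in FF hens, and in ADAM17, which was higher. ADAM10, which cuts Notch receptors and cadherins, had 9289 and 10050 normalized counts in FF hens and 10188, 11401 and 12804 in RF hens. Its log2 fold change was −0.24, with a 95% interval from −0.57 to 0.09 (adjusted p = 0.412 from limma). ADAM17, which releases TNF and ligands of the EGF receptor, had 6905 and 7390 in FF hens and 6675 to 6850 in RF hens, and its interval ran from −0.18 to 0.34. These intervals leave room for small differences and hold no change as large as that of ADAMTS3. ADAM9 had 3970 and 4180 in FF hens and 3893 to 6058 in RF hens (log2 fold change −0.24, limma's adjusted p = 0.56).

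ADAM11, ADAM22 and ADAM23 have no working protease site and act as binding proteins, ADAM22 and ADAM23 as receptors of the secreted LGI proteins. ADAM23 had 2011 and 2447 normalized counts in FF hens and 1431, 1720 and 1865 in RF hens, with no overlap and a log2 fold change of 0.42 (adjusted p = 0.262 from limma). ADAM22 had 2 to 15 in the 5 libraries, and ADAM11 had 39 and 5 in FF hens and 16 to 26 in RF hens. The ligand LGI1 had 193 and 179 in FF hens and 383, 434 and 537 in RF hens (log2 fold change −1.26, limma's adjusted p = 0.0567), and LGI2 had 163 and 191 against 264 to 385 (adjusted p = 0.136). LGI3 had 57 and 6 against 21 to 33 and overlapped between groups, and LGI4 had no row under that symbol. ADAM8, ADAM12 and the lower ADAM20 gene were below the minimum mean. ADAM19 had 12 and 11 in FF hens and 15, 29 and 18 in RF hens, and the other ADAM20 gene reached 27 in FF replicate 1 and 6 to 11 elsewhere.

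The membrane-type MMPs carry a membrane anchor and act at the cell surface. MMP15 had 8756 and 4946 normalized counts in FF hens and 4557, 4643 and 2919 in RF hens. FF replicate 1 stood above the rest while FF replicate 2 lay just above the RF hens, and the log2 fold change of 0.74 did not pass (standard error 0.30, adjusted p = 0.266 from limma) and was 0.32 without FF replicate 1. MMP24 had 620 and 530 in FF hens and 387 to 617 in RF hens, and MMP16 had 113 and 154 against 96 to 147. Both overlapped between groups. MMP23B had 31 and 48 in FF hens and 23 to 68 in RF hens.

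Several secreted MMPs had their high values in 1 or 2 RF libraries only. MMP2, a gelatinase of stromal cells, had 3 and 0 normalized counts in FF hens and 102, 10 and 14 in RF hens (log2 fold change −3.68 with a standard error of 1.13, limma's adjusted p = 0.174). Its peak was in RF replicate 1, the library in which 11 of 14 theca and stroma markers were highest, LUM in a tie. Without that library MMP2 fell below the minimum mean and was not tested. The part of these markers in the MMP2 difference was not tested. MMP11, also called stromelysin-3, had 0 and 5 in FF hens and 49, 6 and 123 in RF hens (log2 fold change −3.84 with a standard error of 1.32, limma's adjusted p = 0.209). MMP10, a stromelysin, had 2 and 0 in FF hens and 28, 48 and 2 in RF hens, so that RF replicate 3 equalled an FF library (adjusted p = 0.256 from limma). MMP2, MMP10 and MMP11 reached the minimum mean through RF hens only, so that the filter fixed their direction.

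MMP1, MMP9 and MMP13 were high in RF replicate 2 alone. MMP1, an interstitial collagenase, had 75 normalized counts in RF replicate 2 and was listed at 0 in the other 4 libraries. MMP9, a gelatinase, had 69 in RF replicate 2 and 3 to 6 elsewhere, and MMP13, another collagenase, had 24 in RF replicate 2 and 0 or 1 elsewhere. In the RefSeq annotation of GRCg7b the genes MMP13, MMP10, MMP1, MMP27 and MMP7 lie in a row, with MMP3, which was not analysed here, between MMP10 and MMP1. MMP27 had 5 in RF replicate 1 and was listed at 0 in the others. MMP9 is not part of this row.

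RF replicate 2 was at or above 20 normalized counts and at least 5 times every other library in 27 of the 24356 listed genes, and 3 of these were MMP1, MMP9 and MMP13. The same rule, which was set after the values had been seen, found 77 genes in RF replicate 1, with MMP2 among them, and 7, 19 and 9 genes with no member in RF replicate 3 and FF replicates 1 and 2. Of the 27 genes, 20 had a symbol. They included PLAU, the urokinase plasminogen activator, at 10328 normalized counts in RF replicate 2 against 912 to 1491 elsewhere, and F3, tissue factor, at 500 against 1 to 9. PTGS2, the inducible prostaglandin synthase, was at 1003 against 71 to 160, and the immediate early gene EGR1 at 626 against 26 to 86. Markers of white blood cells, which can carry MMP9, summed to 894 in RF replicate 2, 721 and 972 in RF replicates 1 and 3, and 836 and 1172 in FF hens, and RF replicate 2 was highest in 1 of the 6 measured. CD3E, a T cell gene, made up 457 of the 894, and the part of these cells in the MMP9 value was not tested. Without RF replicate 2, MMP1, MMP9 and MMP10 were below the minimum mean and were not tested.

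**Figure D4:**
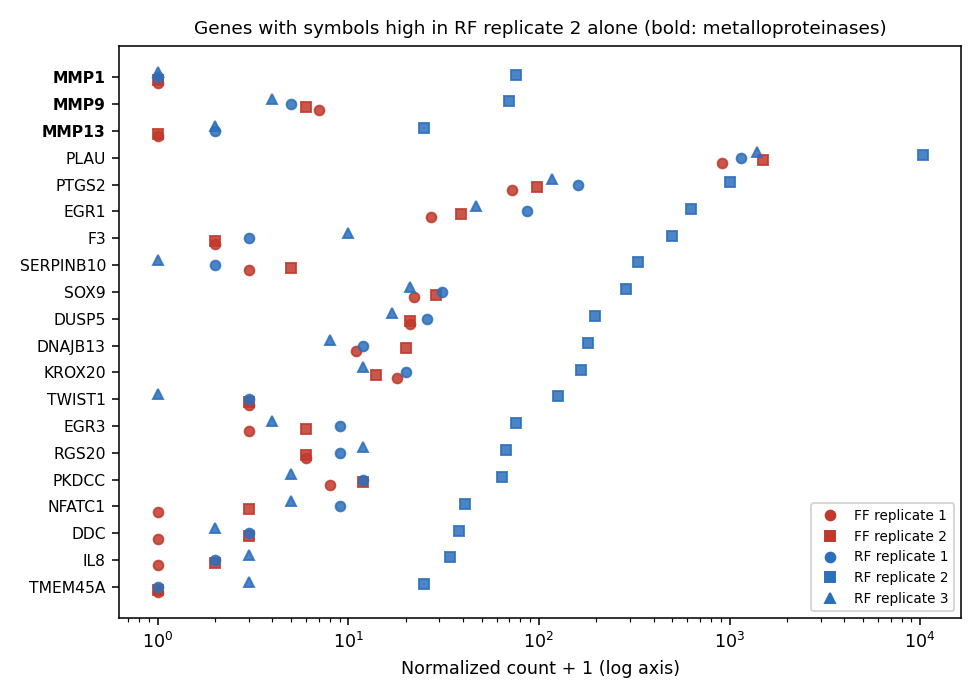
Normalized count plus 1 (log axis) in each library of the 20 genes with symbols that were at least 20 and at least 5 times every other library in RF replicate 2, with metalloproteinases in bold. RF replicate 2 (blue squares) is at 75, 69 and 24 in MMP1, MMP9 and MMP13, and the other 4 libraries lie to the left in every row.

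TIMP4, TIMP3 and TIMP2 encode secreted inhibitors that bind the active site. TIMP4 had 151 and 191 normalized counts in FF hens and 27, 82 and 55 in RF hens. Its FF values were above all RF values, with the largest positive log2 fold change of the 36 tested members, 1.75 (standard error 0.48, 95% interval 0.61 to 2.90), but the adjusted p was 0.137 from limma. TIMP3, which is held in the matrix and also inhibits ADAM17 and several ADAMTS proteases, had 5756 and 4603 in FF hens and 4701 to 5697 in RF hens. The interval of its log2 fold change ran from −0.34 to 0.40, and the sign of the estimate, 0.03, turned after scaling to equal totals or equal upper quartiles. TIMP2 had 1808 and 875 in FF hens and 1150 to 1935 in RF hens, and FF replicate 2 was the lowest of all 5.

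The direction of the members differed with their level, as it did among all tested genes. Of the 14 members with a mean of 10 to under 100, 12 were lower in FF hens (median log2 fold change −0.86), against 65.8% of the 3109 tested genes at that level (median −0.29). Of these 14, ADAM33, MMP1, MMP2, MMP9, MMP10 and MMP11 reached the minimum mean through RF hens only, and 1 ADAM20 gene through FF hens only, so that the filter fixed the direction of these genes and the count supports nothing. Of the 22 members with a mean of 100 or more, 9 were lower (median 0.11), against 43.8% of 10196 genes (median 0.04). The median over the 36 members was −0.26, against 0.01 over all tested genes, and it turned to 0.08 when only the 23 members with a mean of at least 50 were tested.

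The activators, inhibitors and partners of these proteases were read from a list of 51 genes, of which 38 had a row under the listed symbol and 35 were tested. The list also held 15 genes under other zinc metalloproteinases, such as MME and ECE1, a group that included PCOLCE and PCOLCE2, which are not proteases. Of these, 10 were tested and 0 had an unadjusted p under 0.05 from limma. Over the whole list of 35 tested genes, 0 passed an adjusted p of 0.05 with limma. At an unadjusted p under 0.05, 5 were lower and 4 higher, or 25.7% of the 35. Among all tested genes this share was 17.8% (8.22% lower and 9.58% higher). TSPAN15, which is among the 5 lower genes, had 2 and 9 normalized counts in FF hens and 74, 14 and 16 in RF hens. It reached the minimum mean through RF hens only, so that the filter fixed its direction. FURIN, which removes the propeptides of many ADAM and ADAMTS proteases, had 11208 and 9142 normalized counts in FF hens and 6217 to 7373 in RF hens (log2 fold change 0.54, limma's adjusted p = 0.135). PCSK7, a related convertase, had 2750 and 1967 against 1219 to 1524 (adjusted p = 0.12), and ST14, a membrane serine protease, had 2509 and 834 against 453 to 596 (adjusted p = 0.166). The other 4 of the 7 tested activating proteases had negative log2 fold changes and did not pass either. PLAT, the tissue plasminogen activator, had 421 and 414 against 578 to 687 (log2 fold change −0.58, limma's adjusted p = 0.149). The log2 fold changes of PCSK5, PCSK6 and PLAU were −0.33, −0.48 and −1.13, and each of these genes overlapped between groups. PLAU had 912 and 1491 against 1152, 10328 and 1385, with its peak in RF replicate 2. THBS2, a matricellular protein that binds MMP2, had 57 and 73 in FF hens and 354, 165 and 273 in RF hens (log2 fold change −1.95, limma's adjusted p = 0.0641). The study's tables list THBS2 among the genes higher in RF hens. RECK, a membrane-anchored MMP inhibitor, overlapped between groups at 1491 to 2067. Of the 9 tested genes listed as inhibitors or inducers, 5 were lower and 4 higher in FF hens. The higher ones included SPOCK2, with 816 and 503 against 194 to 411 (log2 fold change 1.05, limma's adjusted p = 0.216). The median log2 fold change of the list was −0.09.

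Of 70 listed substrates, 63 had a row under the listed symbol and 57 were tested. At an unadjusted p under 0.05 from limma, 9 were lower and 7 higher (28.1%), against 17.8% of all tested genes. At an adjusted p under 0.05 from limma, 2 were lower and 1 higher in FF hens, where 0.241% and 0.842% of all tested genes were. These lower genes were MET, a receptor that ADAM proteases shed, and LAMA1, a laminin of basement membranes. The higher one was SORL1, a sorting receptor that ADAM17 sheds. MET had 666 and 572 normalized counts in FF hens and 1503, 2254 and 2207 in RF hens (log2 fold change −1.66, limma's adjusted p = 0.0275). LAMA1 had 606 and 596 against 1154 to 1625 (adjusted p = 0.0456), and SORL1 had 6635 and 3775 against 257 to 647 (adjusted p = 0.0282). MET and SORL1 also passed without RF replicate 1 and without RF replicate 3, but neither did without RF replicate 2 or without either FF replicate, and LAMA1 lost its call whichever library was left out. FN1, fibronectin, had 33277 and 24410 against 14425 to 16381 without passing (adjusted p = 0.0598). The median over the 57 genes was −0.42, and the 8 tested procollagens and collagens, which include the network collagens COL4A1 and COL4A2, had a median of −1.10 with 0 past the test and 1 at an unadjusted p under 0.05. Of these 8, 7 were lower and 1 higher in FF hens. The higher one was COL1A2, which had the highest mean of the 8, with 3267 and 2435 against 2080 to 2744 (log2 fold change 0.21). Of the 8, only COL1A1 and COL4A1 did not overlap between groups (25%, against 36.3% of all tested genes). COL1A2, COL2A1, COL3A1, COL4A2, COL5A1 and COL5A2 overlapped. COL1A1, which is also on the theca and stroma list, had 39 and 16 in FF hens and 714, 75 and 56 in RF hens, and COL4A1 had 44 and 19 against 850, 52 and 704. COL4A1 passed only without RF replicate 2, with a log2 difference of −4.69 and limma's adjusted p at 0.0379. SORL1, MET, COL4A1 and COL4A2 of this list were known as called genes from the study's tables, so the list gives no independent support.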

How the data were processed

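Granulosa cell RNA was poly(A)-selected and sequenced with a directional kit, 1 library per hen. According to the submitters' processing notes, the authors used Trim Galore, STAR with the galGal6 build, and DESeq2 for normalization. The read counter and all versions were not given in the sources used here. What the authors deposited are DESeq2-normalized counts in rounded form, here handled as a score rather than as raw counts. Since 1 read is worth less than 1 normalized count in some libraries, rounding merged read counts and no count model was run. All 5 columns were matched to hens by the sample labels.

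The test was limma 3.58.1 (R 4.3.3) with its trend option, applied to log2(normalized count + 1) as FF minus RF for all 13305 genes averaging 10 or more, which differs from the count model of the study. This scale understates changes of low genes. The p-values cover only the spread between these few hens. The fit and the estimate of what 1 read is worth, from the spacing of low values, were tested on simulated data. Members, gene lists and settings were chosen with earlier results of these data known. Named genes are members past an adjusted p of 0.05, the 12 with the lowest p, the 3 with the highest mean of each subfamily, and ADAMTS3 and MMP28; other members are given so that all are accounted for, and listed regulators and substrates that did not pass were picked as examples after their values were seen. For the names of neighbouring genes the RefSeq table of GRCg7b was matched by symbol (45 of 47 symbols). Plots used Python 3.11.15 and matplotlib 3.10.9.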

Additional observations from a re-analysis of the deposited data

How the results depend on the processing

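With 5 libraries the calls are fragile. The member counts were 3 lower at an adjusted p under 0.05, 2 of them past the study's thresholds. Both went to 0 with no filter on low values, with limma without the trend, with a replicate block, and without RF replicate 1, 2 or 3. The calls among all tested genes fell as well. From 32 lower and 112 higher they went to 1 and 13 with no filter, 0 and 0 without the trend, and 9 and 53 with the block. Without RF replicates 1, 2 and 3 in turn they were 3 and 20, 7 and 26, and 31 and 97. Adding 8, or a minimum mean of 50, gave 2 members in place of 3. The substrate counts of 2 lower and 1 higher likewise went to 0 and 0 with no filter, without the trend and with the replicate block, and to 0 to 1 lower and 0 to 1 higher without single libraries. Of the regulators, 1 gene, LGI1, passed as lower with a minimum mean of 50, equal totals or equal upper quartiles, where 0 had passed. The other settings (pseudocounts, scaling, robust variance) kept ADAMTS3 and MMP28 among the calls, and 0 members were higher under any setting. Equal totals shifted the median over all tested genes by −0.14 on the log2 scale. Under it ADAM17 turned to −0.059 and TIMP3 to −0.11, and TIMP3 also turned to −0.019 with equal upper quartiles and −0.0195 with the replicate block. Without single libraries TIMP3 ran from −0.13 to 0.19 (negative without FF replicate 1, RF replicate 1 or RF replicate 3), MMP24 from −0.0713 to 0.26 (negative without RF replicate 1) and TIMP2 from −0.81 to 0.23 (positive without FF replicate 2). The values of several genes that did not pass moved by over 1.5 times without 1 library, among them ADAMTS15 (0.22 to 0.69), ADAMTS2 (0.47 to 1.34), MMP15 (0.32 to 1.15), ADAM23 (0.27 to 0.56), ADAMTS7 (0.22 to 0.47), ADAMTSL2 (0.13 to 0.42), ADAM9 (−0.39 to −0.07), ADAM10 (−0.32 to −0.16), ADAM17 (0.03 to 0.13) and MMP11 (−5.14 to −2.55). The cause was not tested. A lone FF library was assumed to vary like the RF libraries. The replicate numbers name different hens and do not pair them (correlation of deviations 0.11 for number 1 and −0.07 for number 2), so the block removes residual degrees of freedom, from 3 to 1. For members near the floor, such as ADAM33, a difference of a few reads sets the value.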
